A study of Mus musculus with 8 samples.

Results

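Cycling T cells in ependymoma-bearing mouse brain were examined here as the droplets that held messenger RNA (mRNA) of the T cell receptor complex together with mRNA of Mki67 or Top2a. Of 39632 droplets that passed the quality limits, 13673 were called T cells because they held at least 2 unique molecular identifiers (UMIs, each a counted mRNA molecule) summed over Cd3d, Cd3e and Cd3g. Of these T cells, 1723 held at least 2 UMIs summed over Mki67 and Top2a and were called cycling. A further 9978 held none and served as non-cycling T cells, and the 1972 with exactly 1 entered neither class. The cycling cells were thus selected on measured values, so their Mki67, Top2a and Cd3 levels are given only as descriptions. The 1723 cycling cells comprised 985 CD8 cells (at least 2 UMIs of Cd8a and Cd8b1, none of Cd4), 89 regulatory T (Treg) cells (at least 1 UMI of Foxp3), 199 other CD4 cells (at least 1 UMI of Cd4) and 450 cells that were neither.

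The cells came from tumor and brain of mice aged 6 to 8 weeks with the genotype NestinCreERT2;Fus1;RFPTdT, in which a Cre recombinase driven by Nestin, a gene of neural progenitors, switches on the ZFTA-RELA fusion that causes ependymoma (EPZFTA-RELA mice). Every mouse of both groups carried these alleles, a luciferase reporter on the fusion allele and a tumor. Mice randomized at 3 weeks of age received 1 injection of either 5 mg/kg mavrilimumab, which binds and blocks the GM-CSF receptor through its alpha subunit, or a control antibody (vehicle IgG) into the cerebrospinal fluid space and were followed to a humane endpoint. The paper describes the sequenced cells of treated mice as taken at recurrence. Its methods give 6 to 8 weeks as the age of ependymoma and control mice used for single-cell sequencing. Cells were stained for the leukocyte marker CD45 and the erythroid marker Ter119, and CD45-positive cells from outside the vessels were sorted. They went into 4 droplet libraries, 2 per treatment, named here vehicle IgG 1 and 2 and mavrilimumab 1 and 2. The study pooled tumors within each group, how many mice each library holds is not given in the sources used here, and p-values measure the spread between libraries.

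A T cell that has met its antigen leaves quiescence, passes through G1, copies its DNA in S phase and divides in mitosis (M), and its daughters carry the same receptor and form a clone. Mki67 encodes the nuclear protein Ki-67, which coats mitotic chromosomes and is lost in resting cells. Top2a encodes the topoisomerase that untangles DNA strands before chromosomes separate, and its mRNA peaks in G2 and M, so a rule on these genes favors late cycle stages.

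Depth and purity differed between libraries, and this bears on every share below. The libraries held 24354457, 148657643, 35785802 and 87127346 UMIs (vehicle IgG 1 and 2, then mavrilimumab 1 and 2, the order used throughout), and their T cells had medians of 13046, 2632, 3819 and 11172 UMIs. Cycling T cells were deeper than non-cycling T cells in each library, with medians of 16282 against 11936, 5057 against 2479, 6468 against 3617 and 17161 against 9601 UMIs. Vehicle IgG 2 stood apart: 61.6% of its cycling T cells also held at least 2 UMIs of a marker of another cell class, against 30.0%, 10.5% and 25.7% in the other libraries. Neural or tumor markers other than Vim summed to 2497 CPM (counts scaled to a common total of UMIs) in its cycling T cells and to 2303 CPM in its non-cycling T cells, whereas these sums lay between 10.0 and 52.9 CPM in the other libraries. The T cell markers were present throughout, at summed levels of 4550, 2366, 4652 and 4701 CPM in cycling T cells, with none of the 10 listed genes at 0. Cd3d, Cd3e and Cd3g, on which the cells were selected, are among these genes, so the sums were partly fixed by the rule. A single barcode was cycling in both mavrilimumab libraries, and no other cycling barcode was cycling in a second library.

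Rule UMIs were few per cell. The median cycling cell held 3 of them in each library, and the highest cells held 34, 62, 132 and 171. Cells just inside the limit, with exactly 2 rule UMIs, numbered 19, 183, 233 and 229, and cells just outside it, with 1, numbered 29, 714, 769 and 460. Both genes were detected together in 32.5%, 60.5%, 56.7% and 53.4% of cycling cells.

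Outside vehicle IgG 1, the other cell cycle genes followed the rule UMIs, most steeply at the top of the range. Summed over a list of 54 G2 and M genes, T cells with no rule UMI held 1706, 1427, 1399 and 1439 CPM. Cells at exactly 2 rule UMIs held 1486, 2300, 1478 and 1458 CPM, so that outside vehicle IgG 2 this sum hardly differed from that of non-cycling cells. Their S phase sum was 1130, 2318, 2103 and 1792 CPM, higher than in cells without rule UMIs in each library but vehicle IgG 1. Cells with 6 or more held 4585, 14454, 13893 and 12869 CPM. The S phase list of 50 genes rose from 1183, 1247, 1493 and 1285 CPM to 3339, 7112, 9864 and 7624 CPM over the same range. In vehicle IgG 1, cells at 3 to 5 rule UMIs held 1775 CPM of the G2 and M list and 1167 CPM of the S phase list. Both sums lay near those of its cells with no rule UMI. These lists share the cell cycle with the rule and describe the cells without supporting the name.

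**Figure D1:**
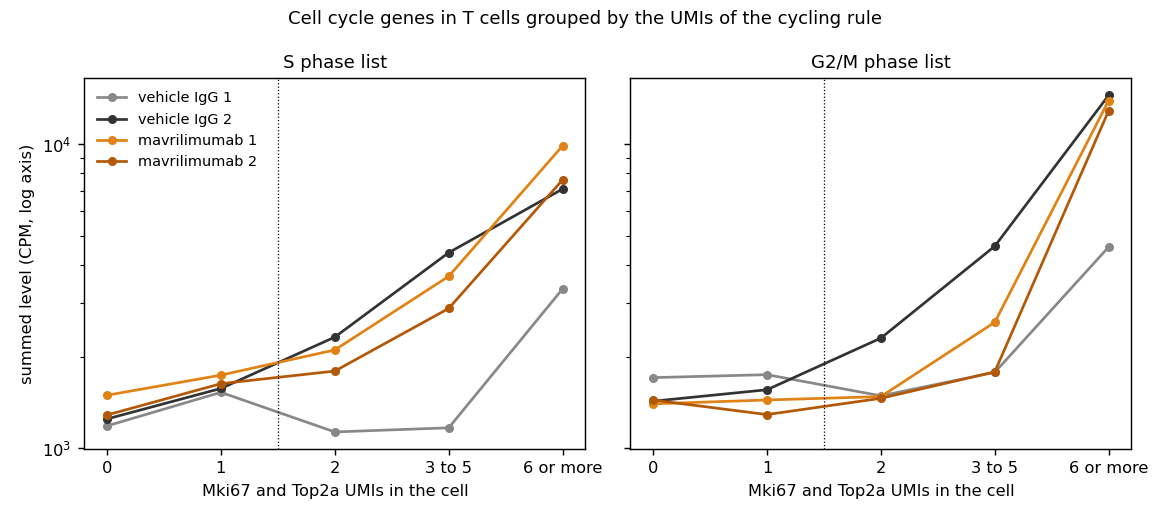
Summed CPM (log axis) of the S phase list (left) and the G2/M phase list (right) in T cells grouped by their Mki67 and Top2a UMIs, 1 line per library; cells right of the dotted line were called cycling. In cells with 6 or more UMIs the G2/M sum reached 4585 CPM in vehicle IgG 1 and 12869 to 14454 CPM in the other libraries, while at exactly 2 UMIs it lay between 1458 and 2300 CPM.

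The promoters of these genes show how they are grouped. Genes of S phase are classically controlled by E2F factors, and genes of G2 and M by the DREAM and MuvB complexes, which bind the cell cycle homology region (letters TTTGAA) often beside CCAAT boxes bound by NF-Y. In RefSeq windows from 250 bases before to 50 bases after each gene start (GRCm38.p6), TTTGAA on either strand stood in 66.7% of 54 windows of 48 G2/M genes, against 17.9% of all 32851 windows and 14.3% of 42 windows of 36 S phase genes. TTTGAA and CCAAT stood together in 55.6% of the G2/M windows and in 6.95% of all windows. The E2F letters TTTGGCGC or TTTCCCGC stood in 26.2% of the S phase windows, 3.70% of the G2/M windows and 1.56% of all windows. A match describes letters and not a bound site. Hmgb2 and Mcm6 were chosen as examples because their windows held these letters, and Pcna, Dut and Slbp, S phase genes of higher level, were passed over. The windows of Hmgb2, a chromatin protein of the G2/M list at 1392 to 1929 CPM in cycling CD8 cells, and of Mcm6, a subunit of the replicative helicase, are shown with these letters in capitals on either strand (CCAAT and TTTGAA for Hmgb2, at chr8:57511593-57511892 on the plus strand; the E2F letters for Mcm6, at chr1:128359656-128359955 on the minus strand).
Hmgb2: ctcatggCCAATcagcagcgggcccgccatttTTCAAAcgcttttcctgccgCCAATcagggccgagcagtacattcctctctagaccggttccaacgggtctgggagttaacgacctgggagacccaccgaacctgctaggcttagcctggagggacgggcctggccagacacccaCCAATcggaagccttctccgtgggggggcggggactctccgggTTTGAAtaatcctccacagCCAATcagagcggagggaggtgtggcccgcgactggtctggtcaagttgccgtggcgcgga
Mcm6: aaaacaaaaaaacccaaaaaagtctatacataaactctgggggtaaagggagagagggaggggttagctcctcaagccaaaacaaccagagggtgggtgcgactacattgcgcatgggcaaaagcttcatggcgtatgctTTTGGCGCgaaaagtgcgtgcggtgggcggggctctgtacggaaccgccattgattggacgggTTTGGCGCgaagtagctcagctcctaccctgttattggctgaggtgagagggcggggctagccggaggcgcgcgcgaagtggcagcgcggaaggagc

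How often T cells cycled varied more within a treatment than between treatments. The cycling share of T cells was 17.0% (40 of 235, 95% exact binomial interval 12.4 to 22.4), 9.47% (476 of 5028, 8.67 to 10.3), 10.1% (554 of 5490, 9.31 to 10.9) and 22.4% (653 of 2920, 20.9 to 23.9). These intervals cover counting error only. Each treatment held 1 high and 1 low library, and the high libraries were those with the deeper cells. The mean was 16.2% ± 8.68 (SD, n = 2) with mavrilimumab and 13.2% ± 5.34 (n = 2) with vehicle IgG, a difference of 2.98 percentage points (two-sided exact permutation test, p = 0.667, where 2 libraries against 2 cannot go below 0.333), and of 1.50 points after thinning. Leaving out vehicle IgG 1, vehicle IgG 2, mavrilimumab 1 or mavrilimumab 2 gave differences of 6.76, -0.794, 9.12 and -3.15 points.

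Droplets outside the T cell rule also reached 2 rule UMIs. Those without any Cd3 UMI reached 2 rule UMIs in 3.68%, 12.6%, 8.71% and 10.3% of cases (median 5686 UMIs in mavrilimumab 2), and these include microglia and tumor cells, which may divide. Droplets with no Cd3 UMI and at least 10 UMIs of S100a8 and S100a9 are termed neutrophil droplets here. They reached 2 rule UMIs in 0 of 10, 11 of 69, 0 of 18 and 4 of 79 cases. Neutrophils do not divide after leaving the marrow, but this rule does not separate them from precursors that may divide. The share in vehicle IgG 2 T cells (9.47%) was no higher than in its neutrophil droplets (15.9%, 8.24 to 26.7, with a median of 1457 UMIs). By itself the share thus does not stand above that of these droplets, although 133 of the vehicle IgG 2 T cells held over 10 rule UMIs. The Mki67 and Top2a UMIs of each droplet were then thinned to a depth of 2000 UMIs. The UMIs that set T cells and their kinds stayed whole, so those calls still depended on depth. After thinning, the cycling shares of T cells were 1.28%, 7.31%, 4.83% and 6.76%, beside 1.36%, 9.67%, 4.09% and 4.35% in droplets without Cd3. The thinned share stood above the Cd3-free share with separate intervals in mavrilimumab 2 alone (5.86 to 7.74 against 3.48 to 5.36). The thinned values rest on 235, 3842, 5055 and 2827 T cells, since shallower cells were left out. Of the neutrophil droplets of vehicle IgG 2, 10 of 25 reached 2 rule UMIs after thinning (40%, 21.1 to 61.3, median 4924 UMIs). Whether these droplets hold dividing cells was not tested.

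The cycling share was then compared between kinds of T cells. Among CD8 T cells the cycling share was 16.2%, 10.6%, 13.6% and 26.2% (1.47%, 8.51%, 5.89% and 8.03% after thinning), whereas among other CD4 cells it was 17.3%, 5.04%, 8.16% and 12.5%. Treg cells lay at 20.0%, 5.41%, 8.54% and 14.8%, resting on 3 and 2 cycling cells in the vehicle IgG libraries. The CD8 share exceeded that of other CD4 cells by 5.87 points on average, in 3 of 4 libraries (exact paired permutation test, p = 0.25), and by 2.71 points after thinning, in 4 of 4 libraries (exact p = 0.125, the smallest that 4 pairs allow). In vehicle IgG 1 the thinned shares rested on 1 of 68 CD8 and 1 of 98 other CD4 cells, and without droplets of another class on 0 of 54 and 1 of 88, which leaves 3 of 4 libraries. Treg cells exceeded other CD4 cells by 1.43 points in 4 of 4 libraries (exact p = 0.125), but after thinning in only 1 of 4, by 0.199 points. Between treatments the CD8 share differed by 6.53 points (13.4% ± 3.98 against 19.9% ± 8.86, n = 2 each, exact permutation p = 0.667) and by 1.97 points after thinning (exact permutation p = 1), the Treg share by -1.04 points and the other CD4 share by -0.875 points (exact permutation p = 1 for each). Without vehicle IgG 1 the latter differences became 6.25 and 5.28 points.

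**Figure D2:**
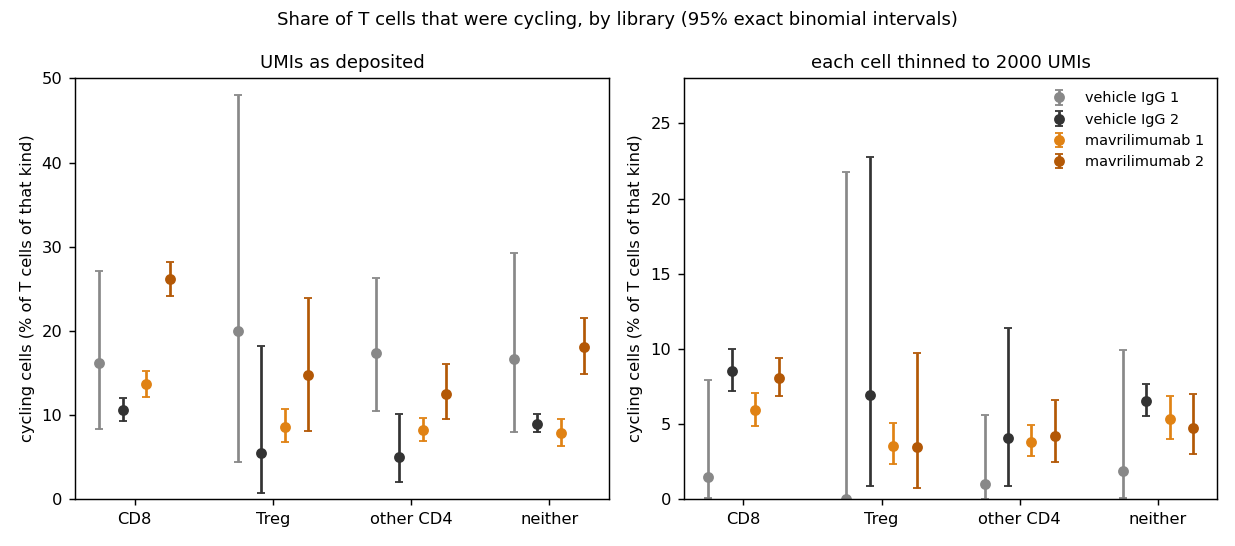
Percentage of T cells of each kind that were cycling, with UMIs as deposited (left) and after thinning the Mki67 and Top2a UMIs of each cell to a depth of 2000 UMIs (right), 1 point per library with its 95% exact binomial interval. Kinds of cells were set on whole counts in both panels. As deposited, CD8 cells of mavrilimumab 2 were highest among CD8 shares at 26.2%, whereas after thinning vehicle IgG 2 (8.51%) and mavrilimumab 2 (8.03%) lay close together.

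The make-up of the cycling pool followed from these shares. CD8 cells made up 27.5%, 45.4%, 48.2% and 75.2% of cycling T cells and 30.1%, 40.8%, 34.2% and 58.7% of non-cycling T cells, a mean difference of 8.11 points seen in 3 of 4 libraries (exact paired permutation test, p = 0.25). Other CD4 cells made up less of the cycling than of the non-cycling T cells in 4 of 4 libraries (18.5% against 23.2% on average, exact p = 0.125). Cells called neither are those with too few UMIs of Cd8a, Cd8b1, Cd4 and Foxp3 for another kind. When cycling, they held Trdc, the constant gene of the gamma-delta receptor, in 66.7%, 31.5%, 44.1% and 55.7% of cases, against 57.6%, 30.5%, 14.4% and 33.9% of non-cycling cells of that kind. In vehicle IgG 1 these cycling cells numbered 9. The natural killer cell genes Ncr1 or Klrb1c stood in 0%, 4.78%, 12.9% and 43.3% of them, against 3.03%, 7.04%, 11.1% and 29.1%. Over all T cells the values were 5.00%, 5.88%, 3.43% and 24.5% of cycling against 3.61%, 7.40%, 3.82% and 14.0% of non-cycling cells. An alpha or beta receptor chain was found in 48.4% and 35.1% of cycling cells called neither in mavrilimumab 1 and 2. Among non-cycling ones the values were 75.7% and 45.2%, so some may be CD8 or CD4 cells whose mRNA was missed. Cycling cells were deeper, and the part of depth in the make-up of the pool was not tested.

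Cycling CD8 cells were compared with non-cycling CD8 cells of the same library in the 3 libraries with at least 20 cells of each state (vehicle IgG 2 and both mavrilimumab libraries, 216, 267 and 491 cycling cells). UMIs were summed per library and state and tested with edgeR's quasi-likelihood test with Benjamini-Hochberg adjustment over 13522 genes, with the library as a block, and all adjusted p-values below are of this kind. At an adjusted p under 0.05, 1800 genes (13.3%) differed, of which 1153 (8.53%) were higher and 647 (4.78%) lower in cycling cells. Outside the S and G2/M lists and division gene families taken by the start of their names, 6.62% of 13018 genes were higher and 4.90% lower. Genes of the cell cycle with other names, such as Fbxo5 and Asf1b, remain among these. None of these genes entered the rule, but they were measured in the same cells that it split. The S list was called higher for 49 of 50 genes (median log2 fold change 2.14) and the G2/M list for 54 of 54 (4.06), which describes the selection, while the median over all genes was -0.03.

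Quiescence and homing genes formed the group that was lower as a block. Of 20 naive and memory genes, 17 were lower and none was higher (median -1.31), beside 4.78% of all genes. Il7r, the receptor for the survival cytokine IL-7, lay at 121, 83.1 and 49.9 CPM in cycling cells and at 304, 235 and 477 CPM in non-cycling cells (log2 fold change -2.10 ± 0.31 SE, adjusted p = 0.00113). Ccr7, which guides T cells into lymph nodes, lay at 37.3, 23.7 and 31.6 CPM against 115, 56.3 and 261 CPM (-2.24 ± 0.28, adjusted p = 0.000408). Every cycling value lay below every non-cycling value for Il7r and for Ccr7. Among transcription factors of resting T cells, Lef1 fell by 1.72, Klf2 by 1.35, Tcf7 by 1.25 and Foxp1 by 0.76 on the log2 scale. Klf2 holds T cells in quiescence. In vehicle IgG 1, whose 11 cycling CD8 cells were left out of the fit, Il7r lay at 24.4 against 642 CPM and Tcf7 at 151 against 687 CPM, in the same direction. Those 11 cells were not higher in the G2/M list (1128 against 1850 CPM) and little higher in the S list (1255 against 1169 CPM).

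The level of these genes in non-cycling cells varied between libraries. Non-cycling CD8 cells of mavrilimumab 2 held 450 CPM of Lef1 and those of mavrilimumab 1 held 144 CPM, whereas cycling cells held 90.1 and 68.0 CPM. When as many non-cycling cells were chosen to match the cycling cells on UMIs, 13 of 20 naive and memory genes were lower (median -0.98), beside 2.60% of all genes. The match was close in vehicle IgG 2 (medians of 5244 UMIs in both states) and mavrilimumab 1 (6739 and 6736) but incomplete in mavrilimumab 2 (18356 in cycling and 13705 in non-cycling cells). States were also assigned from rule UMIs thinned to a depth of 2000 UMIs per cell. In that fit 17 of 20 were lower (median -1.11), beside 10.2% of all genes. Its gene counts were not thinned, and medians in mavrilimumab 2 were 23576 UMIs in cycling and 11838.5 UMIs in non-cycling cells. Without the library block a single one was called, with a median of -1.26, beside 0.103% of all genes lower.

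**Figure D3:**
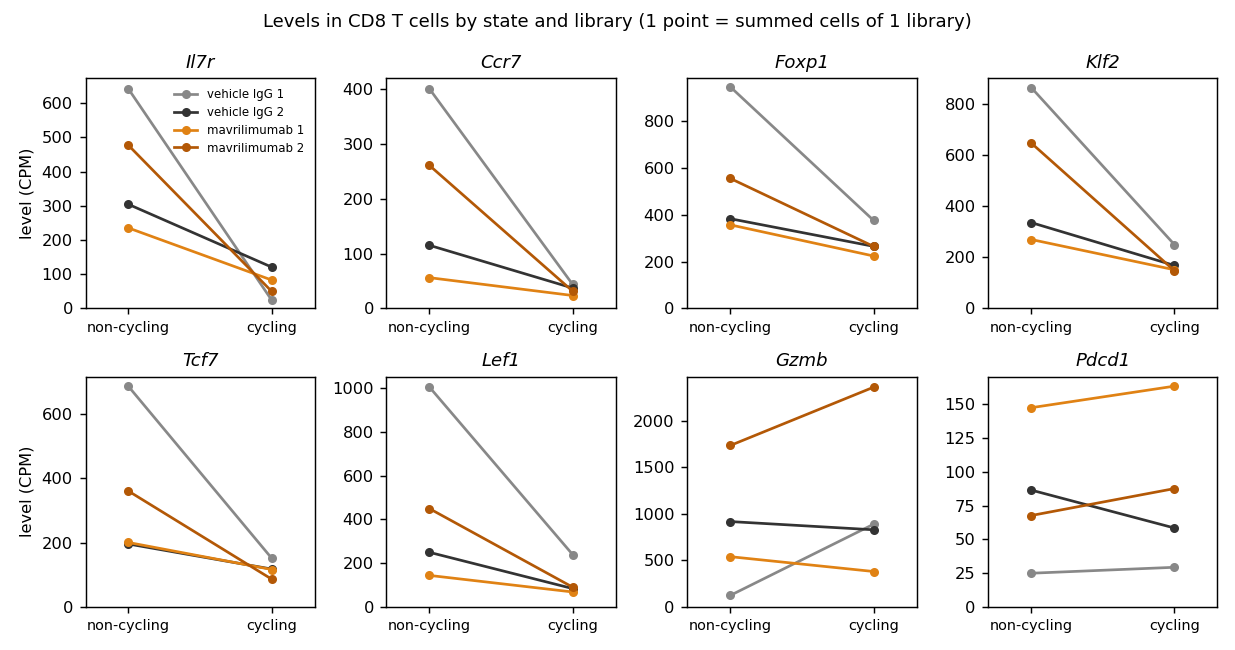
CPM of 8 genes in non-cycling and cycling CD8 T cells, each point the summed cells of 1 library and each line 1 library (axes start at 0 and differ between genes). Il7r, Ccr7, Foxp1, Klf2, Tcf7 and Lef1 were lower in cycling cells of every library shown, whereas Gzmb and Pdcd1 moved in different directions between libraries; the vehicle IgG 1 cycling points rest on 11 cells.

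Effector and checkpoint genes did not move as groups. Of 23 cytotoxic effector genes, 1 was higher and 3 were lower (median 0.06), beside 8.53% of all genes higher and 4.78% lower. Gzmb, the granzyme that triggers target cell death, lay at 829, 380 and 2364 CPM in cycling cells and at 918, 540 and 1737 CPM in non-cycling cells, higher in 1 of 3 libraries. Nkg7, a cytotoxic granule protein, lay at 1497, 2398 and 2059 against 1673, 2629 and 1526 CPM. These values overlapped between states. Ccl5, a chemokine of effector and memory cells, was lower in every library at 1356, 3651 and 2431 against 2624, 5768 and 2943 CPM (-0.61 ± 0.10, adjusted p = 0.00283), and Prf1, the pore-forming perforin, fell by 0.74. Ccl3, a chemokine of recently stimulated cells, rose by 0.73 ± 0.19 (adjusted p = 0.0318), a call lost in 5 of 12 alternatives. With UMI-matched non-cycling cells the Ccl5 difference was -0.18 and was no longer called.

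Of 19 checkpoint and exhaustion genes, Irf4, a transcription factor induced by receptor signaling, alone was higher (0.96 ± 0.24, adjusted p = 0.0245). Pdcd1, which encodes PD-1, lay at 58.4, 164 and 87.7 CPM in cycling and at 86.5, 148 and 67.7 CPM in non-cycling cells, a mixed direction. Tox lay at 114, 475 and 165 against 180, 497 and 171 CPM, lower in each library without a call. Irf4 was itself rare, at 9.74, 24.2 and 11.8 CPM against 6.80, 8.89 and 6.98 CPM, and its call was lost in 7 of 12 alternatives. The 30 interferon-stimulated genes had a median of -0.00 with 1 higher (Ifi27l2a). Of 24 activation and cytokine receptor genes, 4 were lower (Itga4, Ifngr1, Cd28 and Il18r1). Of 17 tested genes of the Treg list, Capg and Tgfb1 were higher, near the share over all genes. Over all genes 8.53% were higher and 4.78% lower.

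Genes that set the G1 phase changed in the sense of their roles in the cell cycle only in part. Of 22 G1 cyclins, kinases and inhibitors, 10 were higher and 3 lower (median 0.45), beside 8.53% of all genes higher and 4.78% lower. Cdk4, the kinase that starts inactivation of the retinoblastoma protein, lay at 236, 192 and 178 against 145, 134 and 111 CPM (0.65 ± 0.09, adjusted p = 0.00102). The antiproliferative genes Btg1 and Btg2 fell by 0.70 and 0.57, and Cdkn1b, which encodes the kinase inhibitor p27, fell by 0.45, a call lost in 7 of 12 alternatives. Inhibitors were also among the higher genes: Cdkn2d rose by 0.84, and Cdkn2c, Cdkn1a and Cdkn2a were called higher, as was Rbl1, an E2F-repressing relative of retinoblastoma (0.97). The D-type cyclin genes did not follow, with Ccnd2 at 498, 478 and 341 CPM in cycling against 577, 683 and 382 CPM in non-cycling cells, and Ccnd3 at 353, 343 and 341 against 384, 378 and 362 CPM.

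Some biosynthetic genes were higher, by small amounts, beside 8.53% of all genes higher. Of 25 oxidative phosphorylation genes 11 were higher and none lower (median 0.30), with Cox8a, a subunit of cytochrome oxidase, at 1038, 667 and 886 against 839, 555 and 638 CPM (0.36 ± 0.08). Among 17 glycolysis entries 7 were higher (median 0.26), led in level by Gapdh (0.69 ± 0.09) and Ldha (0.32 ± 0.09, lost in 9 of 12 alternatives), and among 23 nucleotide and one-carbon genes 10 were higher (median 0.46), among them Phgdh, the entry enzyme of serine synthesis (0.72 ± 0.11), and Impdh2, which makes guanine nucleotides (0.65 ± 0.10). Against the UMI-matched non-cycling cells, which were also fewer, none of the oxidative phosphorylation and glycolysis genes and 3 of the nucleotide genes were called, with medians of 0.17, 0.16 and 0.27, beside 6.03% of all genes higher in that fit. In the fit with states from thinned rule UMIs, whose gene counts were not thinned, 15 of 25 oxidative phosphorylation genes were higher (median 0.31). So were 5 of 16 glycolysis genes (1 lower, median 0.07) and 11 of 23 nucleotide genes (median 0.40), beside 12.3% of all genes in that fit. Of 20 chromatin and DNA methylation genes, 13 were higher (median 0.62), and 10 were when matched (0.52). Hmgn2, a nucleosome-binding protein, lay at 793, 381 and 518 against 174, 105 and 129 CPM (2.03 ± 0.09, adjusted p = 1.90e-07), and Dnmt1, which copies methylation onto new DNA, rose by 1.39.

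**Figure D4:**
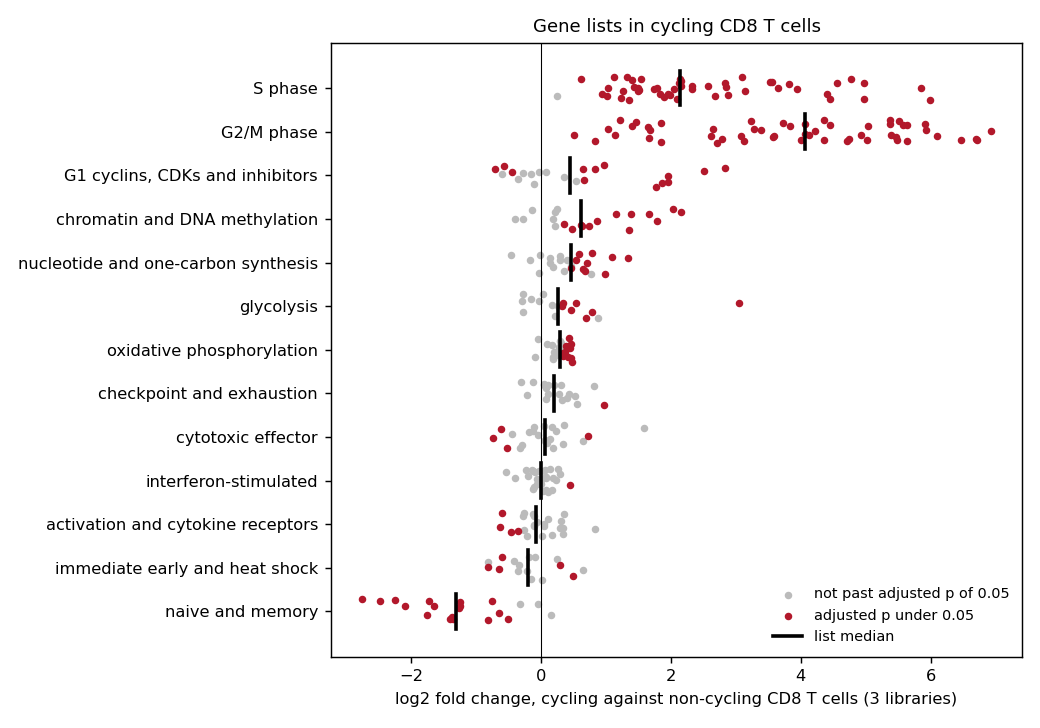
Log2 fold change of cycling against non-cycling CD8 T cells in 3 libraries for the genes of 13 lists, 1 point per gene, red where the adjusted p is under 0.05, with the median of each list as a black bar. The naive and memory list lay lowest (median -1.31, 17 of 20 lower) and the S and G2/M lists highest (2.14 and 4.06); the cytotoxic, checkpoint and interferon lists lay near 0.

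The remaining lists gave few calls, beside 8.53% of all genes higher and 4.78% lower. Among 14 apoptosis genes 2 were higher, among them Bak1 (0.49), which promotes cell death, and the survival gene Mcl1 was lower (-0.37). Of 16 immediate early and heat shock genes, which respond to tissue dissociation, Junb (-0.81), Zfp36 and Dusp1 were lower and the chaperones Hspa8 (0.30) and Hsp90aa1 were higher. Outside the listed and division families, the largest rises among genes of at least 50 CPM were those of Fbxo5 (4.63 ± 0.17), an inhibitor of the anaphase-promoting complex, Asf1b (3.95), a histone chaperone, Tcf19 (3.58), a growth-regulated chromatin factor, Diaph3 (2.79), an actin-nucleating formin, and Lockd (2.59), a noncoding RNA encoded next to Cdkn1b. The families were taken by name, so these rises still include genes of the cell cycle. Fbxo5 lay at 131, 105 and 79.7 CPM in cycling cells and at 5.36, 2.76 and 4.17 CPM in non-cycling cells. Among the largest falls were those of Ccr7, Il7r, Cmah and Pik3ip1, an inhibitor of PI3 kinase (-1.82). Microglia markers fell with the cycling state (4 of 11, among them C1qa, Cx3cr1 and Lyz2), and their sum lay at 788, 736 and 1115 CPM in cycling against 820, 964 and 1627 CPM in non-cycling CD8 cells. B cell markers summed to 134, 1600 and 150 against 137, 254 and 245 CPM, and 59.7%, 7.49% and 23.8% of cycling against 47.9%, 3.93% and 17.5% of non-cycling CD8 droplets held markers of another class. Leaving those droplets out gave 18 lower naive and memory genes (median -1.42), beside 7.46% of all genes.

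Cycling other CD4 cells could be compared in the mavrilimumab libraries only (123 and 52 cycling cells). Of 10067 genes, 401 (3.98%) differed, 329 (3.27%) higher and 72 (0.715%) lower, and outside the division families 1.53% were higher and 0.749% lower. The S and G2/M lists were called higher for 46 of 50 and 46 of 52 genes, again as a description. Of 20 naive and memory genes, 14 were lower and 1 was higher (median -0.96). Il7r lay at 168 and 562 CPM in cycling against 516 and 1036 CPM in non-cycling cells (-1.24 ± 0.22, adjusted p = 0.00876), Klf2 at 249 and 724 against 489 and 1342 CPM (-0.93), and Lef1 fell by 1.25. Each of these was lower in both libraries, although cycling cells of mavrilimumab 2 lay above non-cycling cells of mavrilimumab 1. Against UMI-matched cells 9 of the 20 were lower (median -0.57), beside 2.10% of all genes.

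The higher member was Ly6c2, a surface protein of memory and effector cells, at 542 and 465 against 296 and 197 CPM (1.05 ± 0.19, adjusted p = 0.0102). Cxcr6, a chemokine receptor of tissue-resident cells (1.08), Xcl1, a chemokine that attracts cross-presenting dendritic cells (1.07), and Irf4 (1.39) were the only calls in the activation, cytotoxic and checkpoint lists. With UMI-matched non-cycling cells Ly6c2, Cxcr6, Xcl1 and Irf4 were not called, and Irf4 stood at -0.035. Hmgn2 (1.54), Dnmt1 (1.17), Ezh2 (1.46) and Nsd2 (1.58) were higher among 19 chromatin genes, whereas no gene of the glycolysis, oxidative phosphorylation or nucleotide lists passed the test.

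Outside the lists, Diaph3 (3.21), Incenp, a partner of Aurora B kinase (1.87), Lockd (1.74) and Slpi, a secreted protease inhibitor (2.69), were among the largest rises. Lsamp, a neuronal adhesion protein, rose by 5.15 through mavrilimumab 2 (348 against 8.08 CPM, and 1.04 against 0.232 CPM in mavrilimumab 1), and stood at 0.18 without a call once droplets with markers of another class were left out. C1qa, a complement gene of microglia, lay at 13.6 and 11.8 against 83.1 and 119 CPM (-2.91 ± 0.30) and at -0.28 without a call in the same comparison, and 5 of 11 microglia markers were lower.

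Cycling Treg cells were too few for a fit at 20 cells per library and state. With at least 10 cells, mavrilimumab 1 (71 cycling cells) and 2 (13 cells) could be compared over 7365 genes, of which 150 (2.04%) differed, 141 (1.91%) higher and 9 (0.122%) lower; outside the division families the shares were 0.639% and 0.128%. The S list was called for 19 of 36 genes and the G2/M list for 34 of 42. Hmgn2, at 316 and 359 against 71.8 and 91.1 CPM (2.16 ± 0.20), and Ezh2, the methyltransferase of Polycomb complexes, at 185 and 137 against 58.1 and 68.8 CPM (1.52), were higher. The costimulatory receptors Tnfrsf4 (OX40) and Tnfrsf9 (4-1BB), which mark activated Treg cells, were lower. Tnfrsf4 lay at 696 and 542 against 1119 and 957 CPM (-0.66 ± 0.15, adjusted p = 0.0490), and Tnfrsf9 at 227 and 258 against 442 and 472 CPM (-0.84 ± 0.18, adjusted p = 0.0337). Cycling Treg cells were deeper than non-cycling ones, with medians of 5715 against 3081 and 14986 against 6842 UMIs. No UMI-matched fit was made for Treg cells, so the part of depth was not tested.

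None of 18 naive and memory genes passed the test in Treg cells (median -0.13). B cell markers were higher for 4 of the 4 tested (Ighm, Iglc2, Cd79b and Cd79a), and 19.7% and 38.5% of cycling against 11.9% and 20.0% of non-cycling Treg droplets held markers of another class; their part in these differences was not tested. When the cycling difference of Treg cells was set directly against that of CD8 cells, 2 of 11020 genes differed (0.0181%), Igkv4-70 and Ighv1-50, both immunoglobulin segments, and none of 20 naive and memory genes (median difference 1.18) or of 20 Treg genes (-0.61) was called. How large a difference this comparison could detect was not simulated.

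In mavrilimumab 1 the B cell signal touched cycling cells at large. The B cell list summed to 5073 CPM in its cycling T cells and 1327 CPM in its non-cycling T cells, beside 89.7 to 243 CPM in the other libraries, and B cells of that library reached 2 rule UMIs in 16.4% of 152 droplets (median 15346 UMIs) and in 1.38% of 145 after thinning. Without droplets that held markers of another class, the cycling share of its T cells was 9.69% in place of 10.1%.

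Treatment was compared within cycling cells, as the question of the study was how mavrilimumab changed the tumor immune compartment. Over all cycling T cells of 4 libraries, edgeR's quasi-likelihood test called 0 of 11308 genes (0%), with 719 at an unadjusted p under 0.05, and DESeq2 called 111. Without vehicle IgG 1 the same edgeR fit called 956 genes, 113 higher and 843 lower with mavrilimumab. On data simulated for this comparison, with 200 genes changed 4-fold, 0% of these were recovered, so that differences of this size were not detectable. The 3 genes called on those simulated data were unchanged ones.

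Cycling CD8 cells could be compared with vehicle IgG as a single library. With vehicle IgG 2 against both mavrilimumab libraries, 855 of 11388 genes differed (7.51%), 51 higher (0.448%) and 804 lower (7.06%) with mavrilimumab. Of 15 neural or tumor markers, 13 were lower, and Dcc, an axon guidance receptor, lay at 338 CPM against 0 and 1.36 CPM. The spread within vehicle IgG was assumed equal to that within mavrilimumab.

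The higher genes were led by interferon-stimulated genes, called for 9 of 30 (median 1.32) beside 0.448% of all genes. Ifit1, which blocks translation of viral RNA, lay at 28.4 CPM against 152 and 115 CPM (2.31 ± 0.30, adjusted p = 0.00768), and Irf7, the factor that amplifies interferon responses, at 120 against 492 and 319 CPM (1.83). Rsad2 (2.09), Ifih1 (2.06) and Mx1 (1.70) followed. In vehicle IgG 1, outside this fit, Irf7 lay at 562 CPM in 11 cycling CD8 cells, above the other 3 libraries. Without droplets that held markers of another class, 5 genes were called and no interferon-stimulated gene among them, and with vehicle IgG 1 added at a minimum of 10 cells 0 genes were called. Prf1 lay at 18.7 against 55.4 and 46.4 CPM (1.53) and Ikzf2, which encodes Helios, at 54.4 against 128 and 116 CPM (1.26). Library and treatment cannot be told apart in these values.

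The difference between cycling and non-cycling CD8 cells was itself compared between treatments. Of 14280 genes, 1 was called in this test (0.007%), Ttr, the transthyretin of the choroid plexus, and 609 stood at an unadjusted p under 0.05. Ttr lay at 33.3 CPM in cycling and 785 CPM in non-cycling CD8 cells of vehicle IgG 2, and at 5.13 and 9.28 CPM in mavrilimumab 2. No member of the naive and memory list was called (median -0.45).

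Receptor sequences tied cycling cells to clones in 3 libraries. Barcodes of the receptor library labelled mavrilimumab 1 recurred in the expression library mavrilimumab 2 (2491 of 2749), those of mavrilimumab 2 in mavrilimumab 1 (4867 of 5659), and those of vehicle IgG 1 in vehicle IgG 1 (182 of 193), with at most 50 elsewhere. The files inside these receptor deposits carry names of the other treatment. The receptors were joined by these barcodes, which leaves each T cell in its expression library. Treatment groups were taken from the labels of the expression libraries, so every treatment comparison here rests on those labels. Their conflict with the names inside the receptor deposits was not resolved. A receptor was found for 80.0% of cycling T cells in vehicle IgG 1, 79.6% in mavrilimumab 1 and 85.3% in mavrilimumab 2, beside 77.7%, 88.2% and 84.4% of non-cycling cells.

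Cycling CD8 cells belonged to expanded clones, of more than 3 cells, more often than non-cycling CD8 cells. In mavrilimumab 1, 115 of 224 cycling cells (51.3%, interval 44.6 to 58.1) against 474 of 1246 non-cycling cells (38.0%, 35.3 to 40.8) were expanded, and in mavrilimumab 2, 103 of 450 (22.9%, 19.1 to 27.1) against 115 of 917 (12.5%, 10.5 to 14.9). In vehicle IgG 1, 0 of 11 and 0 of 42 were. With expansion set at 2 or more cells, the difference was 5.61 points in mavrilimumab 1, with overlapping intervals (56.7 to 69.7 against 55.0 to 60.5), and 17.8 points in mavrilimumab 2. The mean difference over the mavrilimumab libraries was 11.8 points, with the same direction in both (exact paired permutation test, p = 0.5, the smallest that 2 libraries allow). Among CD4 cells, Treg cells included, the values were 32.9% against 35.0% in mavrilimumab 1 and 0 of 58 against 1 of 345 in mavrilimumab 2. Cells of 1 clone are not independent, so the intervals are too narrow.

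The relation to clone size was not steady. In mavrilimumab 2 the cycling share of CD8 cells was 23.0% in single-cell clones, 33.1% in clones of 2 to 3 cells, 38.6% in clones of 4 to 10 and 29.7% above 10. In mavrilimumab 1, 82 of 683 cells in single-cell clones were cycling, and the larger classes lay at 8.85%, 17.8% and 15.4%. The class of 4 to 10 cells was highest in both. Median depth in these classes was 12378, 14205, 14373 and 12092 UMIs in mavrilimumab 2, where the middle classes were both the deepest and the most often cycling, and 5340, 4362, 4301 and 4013 UMIs in mavrilimumab 1. The part of depth in these shares was not tested.

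**Figure D5:**
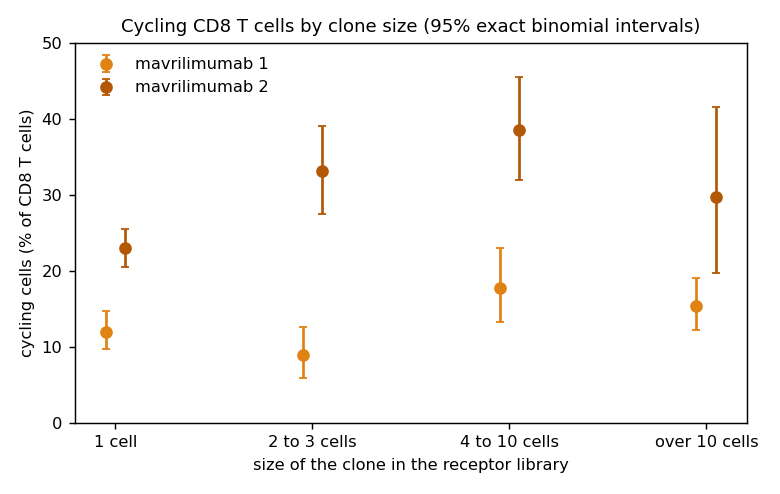
Percentage of CD8 T cells that were cycling by the size of their clone in the receptor library, 1 point per mavrilimumab library with its 95% exact binomial interval. In both libraries the value was highest in clones of 4 to 10 cells, 17.8% and 38.6%.

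Most cycling CD8 clones held a single cycling cell. In mavrilimumab 1 the 224 cells fell into 154 clones, 23 of which held at least 2 cycling cells, and 60.7% of the cells had a non-cycling cell of the same clone. In mavrilimumab 2 the 450 cells fell into 372 clones, 42 with at least 2 cycling cells, and 28.7% had such a partner. The largest contribution came from a clone of mavrilimumab 1 with 153 CD8 T cells, 32 of them cycling (20.9%, interval 14.8 to 28.2), which used TRAV16, TRAJ57, TRBV12-2 and TRBJ1-1. Among the clones with the most cycling cells, a clone of 5 T cells in that library (3 of them CD8, TRBV13-3) was cycling in 5 of 5 cells.

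In mavrilimumab 2 the leading clones were smaller and had larger cycling parts, at 8 of 19, 6 of 16 and, in each of a further pair, 6 of 10 cells. In both libraries clones were ranked by their cycling cells, so small leading clones have large cycling parts through the ranking itself. CD8 cells of mavrilimumab 2 were also deeper than those of mavrilimumab 1 (medians of 12474 and 4639 UMIs). Their cycling shares were 26.2% and 13.6%, and the part of depth was not tested. A pair of clones, with 8 of 19 and 4 of 13 cycling cells, used different alpha chains (TRAV11 with TRAJ27, and TRAV10N with TRAJ21) but held the same beta chain (TRBV15 with TRBJ2-1). A clone was defined by the alpha and the beta chain of highest UMI count in each barcode. A clone whose cells carry a further alpha chain could therefore be split, and whether this pair is a single clone was not tested. The CDR3 sequences, the receptor stretches that touch antigen, are given for leading clones of both mavrilimumab libraries, for a clone cycling in every cell and for the pair that shares a beta chain, with no letters marked.
Mavrilimumab 1, 32 of 153 cycling, TRB: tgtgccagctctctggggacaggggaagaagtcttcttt
Mavrilimumab 1, 5 of 5 cycling, TRB: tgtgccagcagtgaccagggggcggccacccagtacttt
Mavrilimumab 2, shared by both clones, TRB: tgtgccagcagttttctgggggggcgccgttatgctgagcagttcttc
Mavrilimumab 2, 8 of 19 cycling, TRA: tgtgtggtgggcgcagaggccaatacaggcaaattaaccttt
Mavrilimumab 2, 4 of 13 cycling, TRA: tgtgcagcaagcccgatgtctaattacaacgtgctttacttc
Mavrilimumab 2, 6 of 16 cycling, TRB: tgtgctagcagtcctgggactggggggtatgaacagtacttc
Mavrilimumab 2, 6 of 10 cycling, TRB: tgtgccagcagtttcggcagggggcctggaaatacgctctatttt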

How the data were processed

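The authors deposited raw Cell Ranger matrices of UMI counts per gene and barcode, unfiltered and aligned to mm10, and lists of receptor contigs with UMI counts; the submitters' processing notes name Cell Ranger 7 and 7.1.0 and Scanpy 1.8.2, whereas the matrix headers name a later Cell Ranger release. Barcodes were kept at 1000 or more UMIs, 200 to 6000 genes and a mitochondrial share of UMIs up to 10%, and no doublet caller was run; droplets with at least 2 UMIs of another class were counted instead. Cells were assigned in the order CD8, Treg, other CD4, neither. CPM is a count divided by the summed UMIs of the same cells, scaled to the same total in every group of cells. Counts were summed per library and state (at least 20 cells) and tested with edgeR 4.0.16 (limma 3.58.1, R 4.3.3), with DESeq2 1.42.0 as an alternative, at a false discovery rate of 0.05. Shares were compared with exact permutation tests (scipy 1.17.1). The members and lists were chosen with earlier results of these data known. Named were list genes (by counts, highest called and defining members) and up to 5 largest rises and falls with a mean of at least 50 CPM and the same direction in every library, outside division, ribosomal, mitochondrial and receptor genes. On simulated data with 200 changed genes, the CD8 comparison (13530 genes) recovered 61% of 2-fold and 82.5% of 4-fold changes, and the other CD4 comparison (10075 genes) 44% and 87%. Of the genes called there, 25 of 147 and 13 of 178 were unchanged ones in the CD8 comparison. In the other CD4 comparison 5 of 93 and 18 of 192 were, so the share of false calls lay above 0.05 in each. The receptor library of vehicle IgG 2 was not analysed here. Some genes that these rules name are not reported here.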

Additional observations from a re-analysis of the deposited data

Results flagged for a closer look

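A few results differed between groups or lay outside the main measurement. The log2 cycling difference of CD8 cells in Ttr was less negative by 3.81 ± 0.38 (SE, edgeR's quasi-likelihood test) in the mavrilimumab libraries than in vehicle IgG 2. In vehicle IgG 2 Ttr lay at 33.3 CPM in cycling and 785 CPM in non-cycling cells, and in mavrilimumab 2 at 5.13 and 9.28 CPM. The mavrilimumab 1 cells held none, and vehicle IgG was 1 library assumed to vary like the others, so this value rests on 1 informative library per treatment. The immunoglobulin segments Igkv4-70 and Ighv1-50 differed between Treg and CD8 cells in their cycling difference, by -3.18 (adjusted p = 0.00127) and -3.00 (adjusted p = 0.00262) on the log2 scale in the same kind of test. For Igkv4-70 in mavrilimumab 1, cycling and non-cycling CD8 cells held 12945 and 450 CPM, and cycling and non-cycling Treg cells 41550 and 13918 CPM. Droplets with over 6000 genes were outside the quality limits. In mavrilimumab 2, 133 of them met the T cell rule and 110 (82.7%) also the cycling rule, 54 of which held markers of another class, beside 22.4% cycling T cells within the limits.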

How the results depend on the processing

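The treatment differences in cycling share were small beside the choice of library, and alternatives at 6 or more rule UMIs, without an upper limit of genes, with states from thinned rule UMIs for genes and clones, or combining thinning with removal of other-class droplets were chosen after seeing the data. Leaving out 1 library moved the difference from -3.15 to 9.12 points for all T cells, 0.258 to 12.8 for CD8 cells, -8.34 to 6.25 for Treg cells and -7.03 to 5.28 for other CD4 cells. The Treg difference was 0.0268 points after thinning, 2.27 without other-class droplets and 3.27 with both, and that of other CD4 cells 1.45 after thinning and 0.891 at 6 or more rule UMIs. The Treg part of the cycling pool, at a difference of -0.608 points, turned to 0.269 higher at 1 or more rule UMIs, 3.45 at 6 or more and 0.248 without a gene limit, and the other CD4 part to 10.4 higher with both thinning and removal, where vehicle IgG 1 held 1 cycling T cell, an other CD4 cell. At 6 or more rule UMIs vehicle IgG 1 held 7 cycling T cells, of which 2 were Treg cells. The CD4 clone difference was a mean over 3 libraries, with vehicle IgG 1 at 0, whereas the CD8 mean covered the 2 mavrilimumab libraries. This CD4 difference of -0.803 points became 2.24 with clones of 2 or more cells. In mavrilimumab 1 alone it was 1.77 after thinning, where the other libraries held 1 and 17 such cycling cells. The cause was not tested.

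In the gene fits thinning set only the states and left the gene counts whole. The 1800 CD8 genes became 1123 with DESeq2, 999 with UMI-matched cells, 458 without the library block, 2846 after thinning and 2803 at 6 or more rule UMIs, and 1221 to 1632 when 1 library was left out. The 401 other CD4 genes became 234 with DESeq2, 714 without a filter and 107 without the library block, and Irf4 there stood at -0.035 with matched cells. For treatment, cycling T cells gave 111 genes with DESeq2, 901 without a filter and 0 to 956 with 1 library left out; cycling CD8 cells gave 2181 without a filter, 5 without other-class droplets and 0 at 10 cells. The single gene of treatment by state became 57 without a filter, 11 without other-class droplets, 50 with matched cells, 0 at 10 cells, 56 after thinning and 88 at 6 or more rule UMIs. Treg cells had no fit at 20 cells; 10 cells gave 150 genes, and 2 against CD8.

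With the replicate number as a block, cycling T cells gave 0 genes between treatments; deviations of the same-numbered libraries correlated at 0.10 and the numbers are not shown to pair libraries. Of 31 genes named in CD8 cells, 9 were called under all 12 alternatives and 0 reversed; of 14 named in other CD4 cells, 0 were called under all 7. Leaving out a library of the other CD4 comparison, and its thinned and 6-UMI fits, were not run for want of cells or libraries, nor were leave-outs or a block for treatment in CD8 cells. Few cells limited Treg cells and vehicle IgG 1, and shallow cells limited vehicle IgG 2 and mavrilimumab 1.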
